A study of Homo sapiens with 8 samples.

Results

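The genes described here encode SR proteins, the serine and arginine rich splicing factors that bind exons and recruit the spliceosome to nearby splice sites. The set was a list of 10 genes given by name, SRSF1, SRSF2, SRSF3, SRSF4, SRSF5, SRSF6, SRSF7, SRSF10, SRSF11 and TRA2A, and all 10 had transcripts in the long-read table. In the short-read table, 8 of the 10 had a gene row of their own, out of 62727 rows. The other two, SRSF1 and SRSF6, lay in rows merged with neighbouring genes and were kept out of the short-read counts below.

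SR proteins carry an RNA recognition motif, or a pair of them, and a tail of alternating arginine and serine that kinases phosphorylate. Many SR genes hold a poison exon, an alternative exon with a stop codon that sends the spliced RNA to nonsense-mediated decay in the cytoplasm. Transcripts with an unspliced intron can also stay in the nucleus, and both routes let an SR protein limit its own production.

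All libraries came from untreated HAP1, a near-haploid human line derived from a leukemia, and the short-read libraries of both fractions came from 3 independent cultures. Nuclei were extracted with urea and detergent, and after a spin the pellet was kept as chromatin and the liquid above it as nucleoplasm. The 6 short-read libraries were 3 of each fraction, and 2 more chromatin libraries were read as long direct cDNA on a nanopore device. One label field named chromatin for all 8 libraries, so the fraction was taken from the titles. MALAT1, a nuclear noncoding RNA, was higher in chromatin by 3.09 on the log2 scale, and the mRNAs of GAPDH and B2M were lower, at -2.35 and -2.11. Among line and lineage markers, BCR, ABL1, VIM, KRT18 and EPCAM passed the filter, and the leukocyte and erythroid markers PTPRC, SPI1, CD33 and GATA1 did not. Mean normalized counts in chromatin and nucleoplasm ran from 59.8 and 323 for EPCAM to 4212 and 14304 for VIM. Recovered raw counts summed to 38895027 to 43804918 per library in chromatin and 75737601 to 79523938 in nucleoplasm. The SR genes with their own row had a raw count of at least 2391 in every library, so none of their values rests on a low count.

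The first comparison asked where the RNA of each SR gene was found. Of the 8 genes, 6 were higher in chromatin, 1 was higher in nucleoplasm and 1 did not pass the test. TRA2A, SRSF4, SRSF5, SRSF10, SRSF11 and SRSF2 were the 6 genes higher in chromatin, between 3.53-fold for TRA2A and 1.29-fold for SRSF2, and SRSF3 was 1.93-fold higher in nucleoplasm. These folds are on the size factors of the authors, and scaling by the added ERCC standards left only TRA2A higher in chromatin. At an adjusted p under 0.05 (limma on log2 of the normalized count plus 1, Benjamini-Hochberg adjustment over 26066 genes), 44.2% of all genes tested were higher in chromatin and 45.2% in nucleoplasm. Among protein-coding genes these shares were 30.2% and 57.5%. None of the 8 passed the 4-fold minimum that the study set for enrichment, which 21.2% of all genes passed in chromatin and 8.47% in nucleoplasm (3.94% and 5.72% of protein-coding genes). That count of 0 at 4-fold was also given by edgeR and DESeq2. At an unadjusted p under 0.05 limma also had 6 genes higher in chromatin and 1 in nucleoplasm. The share of all genes at that unadjusted threshold was not computed. At a 2-fold minimum TRA2A, SRSF4, SRSF5 and SRSF10, 4 of the 8, were called in chromatin and none in nucleoplasm, beside 32.2% and 26.9% of all genes. In 6 of the 8 all chromatin libraries were above all nucleoplasm libraries and in 1 all were below, beside 44.6% and 46% of all genes tested. A fraction pooled from many cells cannot show whether an RNA was in fewer nuclei or at a lower amount per nucleus.

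Among the SR genes named at the start, SRSF4 and SRSF5 encode proteins with a pair of RNA recognition motifs and had rows of their own. SRSF4 and SRSF5 were 3.02-fold and 2.82-fold higher in chromatin. SR family genes outside that set, some of them lower in chromatin, are described below. SRSF4 (chr1:29147743-29181900, minus strand) promotes exon inclusion and has a long arginine and serine rich tail. It had 6285, 7299 and 5770 normalized counts in chromatin replicates 1 to 3 and 2272, 2058 and 2059 in nucleoplasm. Its log2 fold change was 1.59 (SE 0.09, adjusted p = 2.66e-07 by limma), and the lowest chromatin library lay far above the highest nucleoplasm library. SRSF5 (chr14:69726900-69772005, plus strand) is an SR protein that binds exonic enhancers. It had 13068, 11631 and 12147 normalized counts in chromatin and 4136, 4426 and 4507 in nucleoplasm. Its log2 fold change was 1.49 (SE 0.06, adjusted p = 4.00e-08 by limma), with no overlap between the fractions.

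The rows that held SRSF1 and SRSF6 cannot be read as these genes alone. SRSF1, a splicing activator that also moves between nucleus and cytoplasm, lay in a row merged with a read-through gene (chr17:57988434-58007574, minus strand). That row had 66124, 76537 and 68423 normalized counts in chromatin and 23786, 23732 and 24886 in nucleoplasm, which gave a log2 fold change of 1.54 (SE 0.06, adjusted p = 6.01e-08 by limma). SRSF6, a splicing regulator related to SRSF4 and SRSF5, lay in a row that also spanned L3MBTL1 and SGK2 (chr20:43457893-43588237, plus strand). Its row had 11413, 11071 and 12423 normalized counts in chromatin and 7008, 7745 and 7685 in nucleoplasm, which gave a log2 fold change of 0.64 (SE 0.06, adjusted p = 1.18e-05 by limma). In both merged rows all chromatin libraries were above all nucleoplasm libraries, but the part of SRSF1 or SRSF6 in these counts was not tested.

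The fold changes of SRSF2, SRSF3 and SRSF7 were the 3 lowest of the 8. SRSF2 (chr17:76733893-76737333, minus strand) stays in the nucleus and regulates splicing and elongation. It had 9167, 8120 and 9349 normalized counts in chromatin and 6647, 6806 and 7136 in nucleoplasm, which gave a log2 fold change of 0.37 (SE 0.06, adjusted p = 0.000487 by limma). The fractions did not overlap, although the change was small. MFSD11 (1469 bases), METTL23 (44 bases) and a protein-coding gene without a symbol (3441 bases) overlap this row on the opposite strand. Per the paper, the short-read libraries were made by a method that keeps the strand. Any leak of opposite-strand reads into this row was not tested.

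SRSF3, the smallest SR protein and a link between splicing and export of mRNA, was the only one of the 8 with more counts in nucleoplasm. Its row (chr6:36594353-36605600, plus strand) had 12570, 10849 and 13506 normalized counts in chromatin and 23091, 23386 and 24337 in nucleoplasm. The log2 fold change was -0.94 (SE 0.08, adjusted p = 4.30e-06 by limma), and the lowest nucleoplasm library was well above the highest chromatin library. SRSF7 (chr2:38743599-38751494, minus strand), which adds a zinc knuckle to its RNA recognition motif and also takes part in export, had 11060, 11160 and 12263 normalized counts in chromatin and 10325, 10454 and 11208 in nucleoplasm. Its libraries overlapped between the fractions and its log2 fold change of 0.11 (SE 0.06) did not pass the test (adjusted p = 0.106 by limma). The call for SRSF7 depended on the tool, since DESeq2 gave an adjusted p of 0.0017 with 0.20, limma with TMM factors 0.0487 with 0.14 and edgeR 0.0533 with 0.14.

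The remaining genes encode relatives of the classical SR proteins, and all 3 were higher in chromatin. TRA2A (chr7:23504780-23532041, minus strand), a sequence-specific activator that binds GA-rich exonic enhancers, showed the highest fold change. It had 12991, 14117 and 12967 normalized counts in chromatin and 3788, 3754 and 3806 in nucleoplasm, which gave a log2 fold change of 1.82 (SE 0.05, adjusted p = 1.09e-08 by limma). This placed TRA2A above 77.2% of all genes tested. SRSF10 (chr1:23964347-23980927, minus strand), which becomes a splicing repressor when it loses its phosphates, had 22739, 22892 and 23725 normalized counts in chromatin and 9431, 10039 and 9514 in nucleoplasm. Its log2 fold change was 1.26 (SE 0.05, adjusted p = 3.11e-08 by limma), with tight replicates in both fractions. SRSF11 (chr1:70205682-70253052, plus strand), an SR-related nuclear protein that interacts with U2AF, had 18986, 20512 and 20357 normalized counts in chromatin and 10700, 9586 and 9895 in nucleoplasm. The log2 fold change of SRSF11 was 0.99 (SE 0.06, adjusted p = 4.01e-07 by limma), and again no library of one fraction reached the other.

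**Figure D1:**
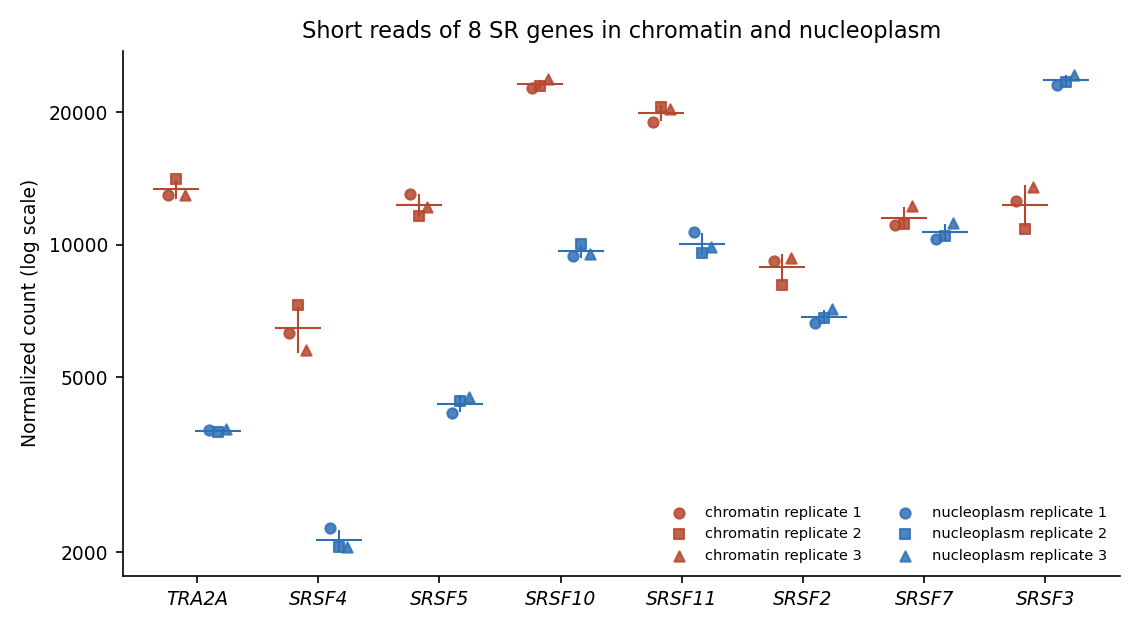
Normalized counts (log axis) of the 8 SR genes with their own row, ordered by fold change, with 3 chromatin libraries in red and 3 nucleoplasm libraries in blue, one marker per replicate. Horizontal bars are means and vertical bars are SD, and the fractions overlap in SRSF7 while SRSF3 is the gene with its nucleoplasm libraries above its chromatin libraries.

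The size of each change rests on the scale chosen for the libraries. The median log2 fold change of the 8 genes was 1.12, beside -0.02 for all 26066 genes and -0.39 for 12493 protein-coding genes. The same volume of ERCC standards was added to each fraction, and scaling each library to its ERCC sum moved the median of all genes to -1.33. On that scale the median of the 8 SR genes was -0.20, TRA2A was the gene higher in chromatin (0.50, adjusted p = 0.0152 by limma), and SRSF2, SRSF3 and SRSF7 were lower, at -0.95, -2.27 and -1.22. SRSF4 (0.27), SRSF5 (0.17), SRSF10 (-0.06) and SRSF11 (-0.34) did not pass the test on the ERCC scale. The ERCC sums were 94580 to 122151 normalized counts in chromatin and 37409 to 49777 in nucleoplasm. Their spread within a fraction enters every test on that scale. The paper described the standards as present at equivalent levels in both fractions. At the same threshold 22.7% of all genes were higher in chromatin on the ERCC scale and 64.8% in nucleoplasm. SRSF3 was the one SR gene past the 4-fold minimum in nucleoplasm on that scale, where 34.4% of all genes were past it. When every library was brought to an equal total, the median of all genes was 0.44 and that of the 8 SR genes 1.59. TRA2A (2.28) and SRSF4 (2.06) passed the 4-fold minimum in chromatin on that scale, as 25.6% of all genes did, and with SRSF7 (0.57) 7 of the 8 were higher in chromatin, beside 54.2% of all genes. A scaling moves all genes by about the same amount, so their order and their distance from the median of all genes carry over from one scale to the next.

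**Figure D2:**
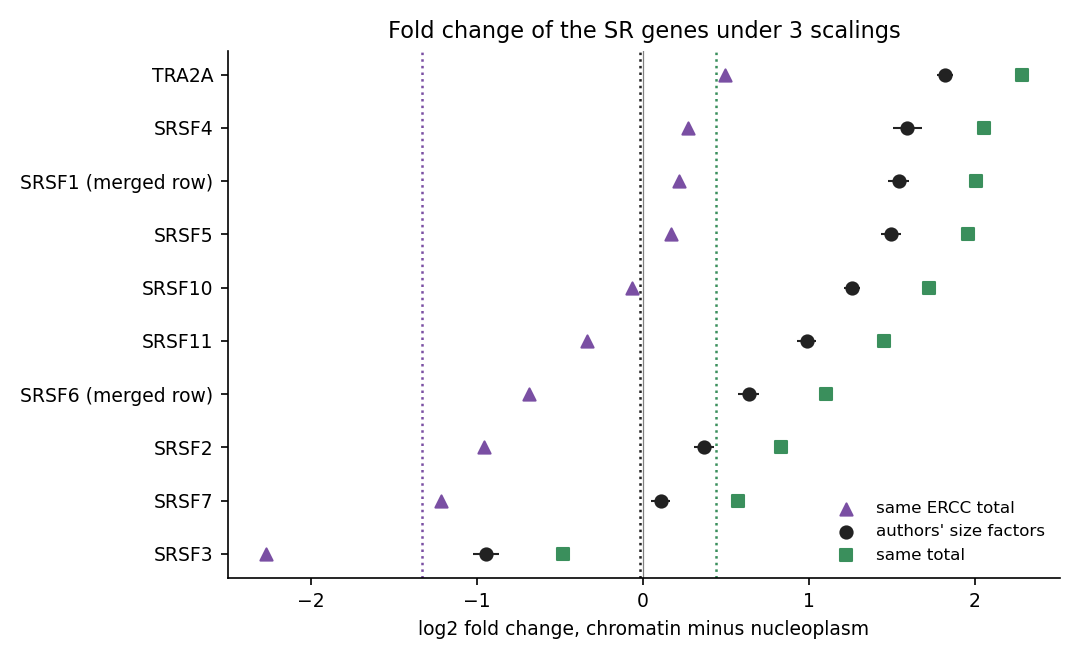
Log2 fold change (chromatin minus nucleoplasm) of each SR gene with the size factors of the authors (black, bars are SE), the same ERCC total (purple) and the same total per library (green). Dotted lines are the medians of all genes tested on each scale, -0.02, -1.33 and 0.44, and since a scaling shifts all genes together, each gene keeps about the same distance from the line of its colour.

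A comparison inside each library needs no scale, so the counts of the 8 genes were also given as shares of their sum. SRSF3 took 11.8%, 10.2% and 12.3% of these counts in the chromatin libraries and 32.8%, 33.2% and 33.6% in the nucleoplasm libraries. The share of TRA2A was 12.4% ± 0.76 in chromatin and 5.32% ± 0.06 in nucleoplasm (means with SD of 3 libraries each), and that of SRSF10 was 21.4% ± 0.14 and 13.6% ± 0.58. SRSF5 took 11.4% ± 0.73 in chromatin and 6.12% ± 0.22 in nucleoplasm, while SRSF7 took 10.7% ± 0.43 in chromatin and 15.0% ± 0.42 in nucleoplasm. No share overlapped between the fractions, and the exact two-sided permutation test gave p = 0.1 for each of the 8 genes, the smallest value that 3 against 3 libraries allow. The shares sum to the whole in each library, so a higher share of SRSF3 lowers the others. For each count of TRA2A there were 0.97, 0.77 and 1.04 counts of SRSF3 in chromatin and 6.10, 6.23 and 6.39 in nucleoplasm. The means of the fractions differed 6.74-fold. TRA2A and SRSF3 had the highest and the lowest fold change of the 8, so this ratio restates that gap.

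**Figure D3:**
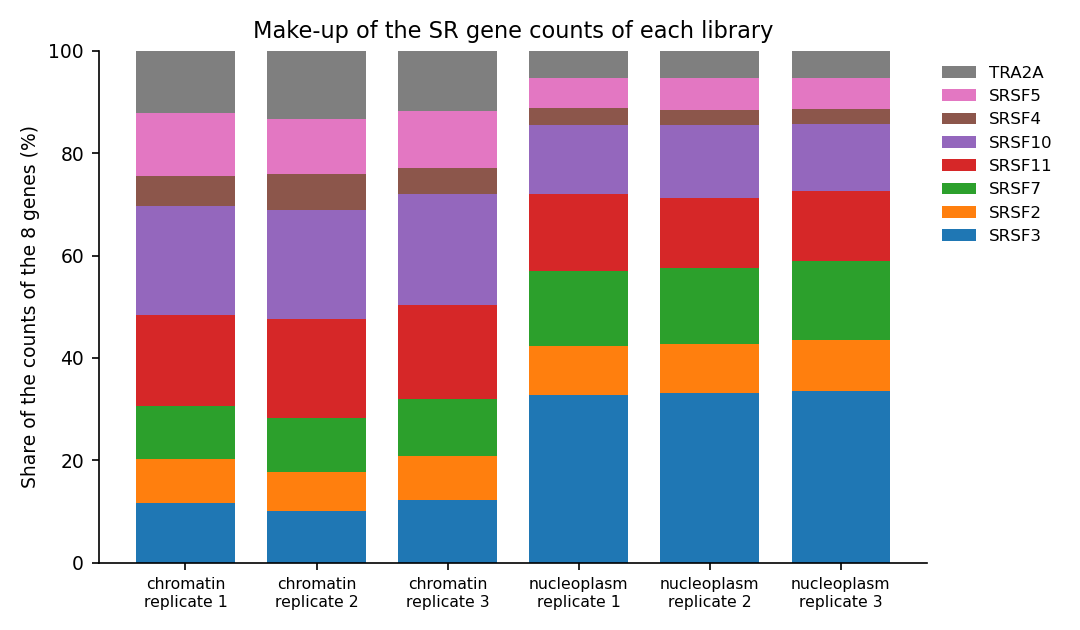
Share of the summed counts of the 8 SR genes (percent) taken by each gene in each of the 6 short-read libraries. SRSF3, at the base of the bars, takes 10.2% to 12.3% in chromatin and 32.8% to 33.6% in nucleoplasm.

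Levels were compared between genes per kilobase of exon of the MANE Select transcript, the reference isoform chosen for each gene. In chromatin SRSF5 had the highest level, 8210 ± 486 normalized counts per kilobase, followed by TRA2A (7484 ± 368), SRSF11 (5040 ± 212), SRSF7 (4879 ± 283), SRSF2 (4703 ± 351), SRSF10 (3020 ± 69.3), SRSF3 (2911 ± 319) and SRSF4 (2805 ± 338; SD, n = 3 each). SRSF5 and TRA2A overlapped, as did SRSF11, SRSF7 and SRSF2 in neighbouring pairs, and SRSF10, SRSF3 and SRSF4. Only the steps from TRA2A to SRSF11 and from SRSF2 to SRSF10 were larger than the spread of the libraries.

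In nucleoplasm the order of these levels was different. SRSF3 came first at 5583 ± 154 normalized counts per kilobase, then SRSF7 (4525 ± 203), SRSF2 (3635 ± 132), SRSF5 (2912 ± 130), SRSF11 (2541 ± 145), TRA2A (2119 ± 14.7), SRSF10 (1262 ± 43.1) and SRSF4 (926 ± 53.6; SD, n = 3 each). No neighbours in that order overlapped. SRSF2, SRSF3 and SRSF7 held the top 3 places in nucleoplasm and places 5, 7 and 4 in chromatin. These lengths assume that the reference isoform carries the counts, and with the genomic span as the length SRSF2 was the highest in chromatin and SRSF3 in nucleoplasm.

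The SR genes were then set beside lists of related factors, described by counts and medians. Of the 4 other SR family genes, TRA2B, the paralogue of TRA2A, was higher in chromatin (log2 fold change 1.48, adjusted p = 8.34e-08 by limma), close to TRA2A itself. SRSF8 (-0.42), SRSF9 (-0.34) and SRSF12 (-0.96) were lower in chromatin and passed the test. SRSF8 turned to 0.04 and SRSF9 to 0.13 with the same total per library. Of 17 genes of SR-related proteins, which share the arginine and serine rich tail but need not bind RNA in the same way, 11 were higher in chromatin, 2 were lower and 4 did not pass, with a median of 1.29 that became -0.03 on the ERCC scale. ARGLU1 (2.92), a factor that joins splicing and transcription, and LUC7L (2.86), a homologue of a yeast U1 protein, were the highest and passed the 4-fold minimum, as did LUC7L3 (2.72), named here because it completed that count. THRAP3 (-0.85) and RNPS1 (-1.41), a part of the exon junction complex, were the lowest.

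Among 9 tested genes for the kinases, the phosphatase and the importer of SR proteins, 5 were higher in chromatin and 4 lower, with a median of 0.79 that became -0.53 on the ERCC scale. CLK4 (1.79) and PRPF4B (1.74), kinases that act on splicing factors in the nucleus, were the highest. TNPO3 (-0.70), which carries SR proteins into the nucleus, and PPP1CA (-2.43), a catalytic subunit of protein phosphatase 1, were the lowest. The U1 and 3′ splice site factors, which SR proteins help to recruit, were mostly lower in chromatin. Of all protein-coding genes tested, 57.5% were also lower in chromatin and 30.2% were higher. Of 8 genes, SF1 (0.59) and U2AF1 (0.56) were higher in chromatin and 6 were lower, with SNRPA (-1.84) and SNRPC (-2.42), both U1 proteins, the lowest and a median of -1.32 that also stayed below 0 on all 3 scales.

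Of 18 tested hnRNP genes, whose proteins often oppose SR proteins at exons, 5 were higher in chromatin, 12 were lower and 1 did not pass, with a median of -0.73 that stayed below 0 on all 3 scales. PTBP2 (0.98) and HNRNPDL (0.93) were the highest and HNRNPF (-1.88) and HNRNPA0 (-2.11) the lowest. Of 7 tested factors of nonsense-mediated decay, the route that destroys poison-exon transcripts, 3 were higher in chromatin and 4 lower, with a median of -0.21 that became 0.26 with the same total per library. UPF3A (1.44) and SMG9 (0.53) were the highest and the helicase UPF1 (-1.31) was the lowest. On the ERCC scale the medians of all these lists were below 0, from -0.03 for the SR-related genes to -2.64 for the U1 and 3′ splice site factors. The counts of all these lists stand beside 30.2% of protein-coding genes higher in chromatin and 57.5% lower, with a median of -0.39. The lists were described and not tested against each other.

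**Figure D4:**
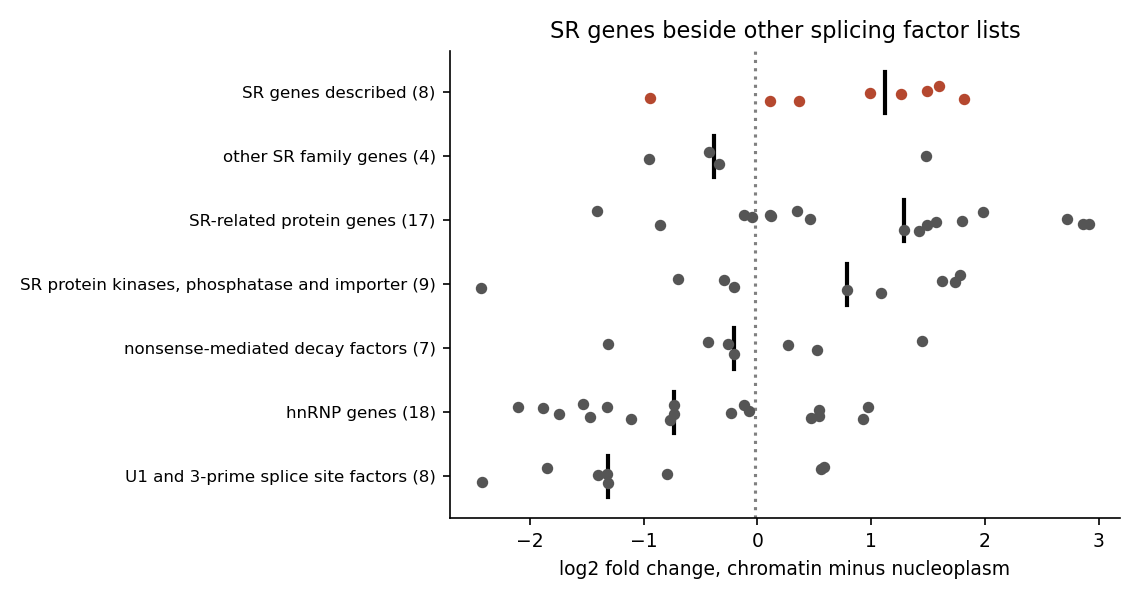
Log2 fold change (chromatin minus nucleoplasm, size factors of the authors) of each tested gene by list, with the number of genes in brackets. Black bars are list medians and the dotted line is the median of all genes tested, -0.02, and the medians run from 1.29 for SR-related protein genes to -1.32 for U1 and 3′ splice site factors.

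The long reads were used to ask which isoforms of the SR genes were in chromatin. The table gives TPM, a scale on which the transcripts of every library add up to the same sum, with no read counts, so the depth behind a value is unknown. With 2 libraries no test was made, and both values are given each time. An exact 0 may be a failed estimate, since the reference isoforms of several SR genes were listed at 0 while other isoforms of the same gene were not. GENCODE 44 holds 119 transcripts of the 10 genes, and 116 were in the table. Of these 116, 35 were above 0 in both libraries and 70 were listed at 0 in both. By class, 14 of 43 coding transcripts, 6 of 23 nonsense-mediated decay transcripts and 8 of 30 retained-intron transcripts were above 0 in both. Only 20 of the 116 had the same span as in GENCODE 44, so the isoforms were matched by identifier.

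The unproductive share of a gene was the TPM of its nonsense-mediated decay and retained-intron transcripts over these plus its coding transcripts. Of the 10 SR genes, 7 had a summed unproductive TPM above 0 in both libraries. The same held for 73.6% of 3737 protein-coding genes with both kinds annotated and a mean of at least 10 TPM. SRSF2 counted with sums of 0.38 and 0.02 TPM, from a different transcript in each library. In 2 of the 10, SRSF3 and SRSF4, the unproductive share was above 50% in both libraries, beside 16.2% of those genes. The median share of the 10 was 18.8% in replicate 1 and 17.8% in replicate 2, beside medians of 14.45% and 12.7% over the 3737 genes. SRSF1, SRSF4 and SRSF6 were under the minimum of 10 TPM, so their shares rest on low values. Only the other 7 SR genes are among the 3737 genes, so the counts and medians of the 10 are of an unlike set. Of those 7, only SRSF3 had a share above 50% in both libraries.

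SRSF7, SRSF10 and, at low values, SRSF1 had signal from each of the 3 classes, coding, decay and retained intron, in both libraries. The main coding isoform of SRSF7, SRSF7-201, had 32.7 and 29.6 TPM. Its poison-exon isoform SRSF7-204 had 6.25 and 12.0 TPM, and SRSF7-205, with the same poison exon, had 1.73 and 4.46 TPM. SRSF7-203, with a shorter form of that exon, had 6.90 and 2.34 TPM, and the retained-intron isoform SRSF7-211 had 6.42 and 4.12 TPM. The unproductive share of SRSF7 was 35.6% in replicate 1 and 33.1% in replicate 2, close together.

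SRSF10-214, the leading coding isoform of SRSF10, had 17.7 and 13.9 TPM, and the decay isoform SRSF10-215 had 6.78 and 23.0 TPM. A retained-intron isoform, SRSF10-213, had 5.67 and 7.03 TPM. The unproductive share was 34.7% and 52.9%, and the move between libraries came mostly from SRSF10-215.

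SRSF3 and SRSF4 had little or no annotated coding signal on their own strand. For SRSF3, the leading coding isoform SRSF3-208 had 2.92 TPM in replicate 1 and was listed at 0 in replicate 2. The decay isoform SRSF3-204 was listed at 0 in replicate 1 and had 19.3 TPM in replicate 2, while the retained-intron isoform SRSF3-205 had 8.68 and 6.03 TPM. The unproductive share of SRSF3 was 78.9% and 100%, and it rests on 13.9 TPM of classified transcripts in replicate 1 and 30.6 in replicate 2. For SRSF4 both coding isoforms were listed at 0. Its leading unproductive isoforms were SRSF4-207, with a retained intron (6.75 and 2.83 TPM), and the decay isoform SRSF4-205 (5.54 and 1.23 TPM). An assembler transcript without class made up 60.21% and 61.55% of the SRSF4 TPM on the strand of the gene. Opposite-strand transcripts held 28.5% and 67.49% of the TPM at the locus. Whether these transcripts stand for coding isoforms was not tested.

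Poison exons of these genes are shown because they hold the stop codons that define the class. Each sequence is from the hg38 reference, written 5′ to 3′ on the strand of the gene, and ends with the premature stop codon in capitals. The first 30 bases lie before the exon, in the intron, or in the case of SRSF10-215 in the exon shared with the coding isoform. SRSF3-203, SRSF6-202 and TRA2A-211 are shown for comparison as poison exons whose isoforms were listed at 0 in both libraries. For SRSF3 this does not show an exon without signal, since the decay isoform SRSF3-204, with 19.3 TPM in replicate 2, ended in the table at the last base of the SRSF3-203 exon. In all 6 the annotated reading frame was open from its start codon to the capitals.
SRSF7-204, chr2:38749319-38749376, minus strand: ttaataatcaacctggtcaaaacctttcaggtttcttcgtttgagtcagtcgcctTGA
SRSF10-215, chr1:23978673-23978742, minus strand: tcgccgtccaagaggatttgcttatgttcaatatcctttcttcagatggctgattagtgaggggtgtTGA
SRSF4-205, chr1:29166009-29166094, minus strand: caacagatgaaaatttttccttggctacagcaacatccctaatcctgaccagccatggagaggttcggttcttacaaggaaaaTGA
SRSF3-203, chr6:36599791-36599854, plus strand: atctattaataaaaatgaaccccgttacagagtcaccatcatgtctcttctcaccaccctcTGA
SRSF6-202, chr20:43459123-43459304, plus strand: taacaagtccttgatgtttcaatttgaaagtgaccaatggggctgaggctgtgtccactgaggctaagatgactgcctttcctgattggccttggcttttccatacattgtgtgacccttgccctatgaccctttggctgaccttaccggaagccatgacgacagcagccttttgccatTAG
TRA2A-211, chr7:23522289-23522462, minus strand: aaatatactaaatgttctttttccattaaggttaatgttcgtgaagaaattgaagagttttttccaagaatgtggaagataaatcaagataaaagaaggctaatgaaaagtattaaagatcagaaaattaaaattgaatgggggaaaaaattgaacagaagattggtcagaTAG

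The stops came early in most of these exons. The poison exon of SRSF7-204 has 449 bases and its stop begins after 25 of them, that of SRSF4-205 has 175 bases with a stop after 53, and that of SRSF3-203 has 456 bases with a stop after 31. SRSF10-215 has no added exon, since it reads 37 bases past the splice site used by the coding isoform before its stop. The exons of SRSF6-202 (268 bases) and TRA2A-211 (301 bases) carry their stops after 149 and 141 bases. The stop was TGA in the 4 exons or extensions of SRSF3, SRSF4, SRSF7 and SRSF10, and TAG in SRSF6-202 and TRA2A-211. All 6 isoforms have at least 3 further exons behind the stop.

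In SRSF2, SRSF5, SRSF6 and SRSF11 the annotated signal was coding. SRSF2-203 had 93.2 and 43.6 TPM, and all unproductive isoforms of SRSF2 together had 0.38 and 0.02 TPM. SRSF5-203 was the one SRSF5 transcript above 0, at 62.6 and 42.7 TPM, SRSF11-203 had 81.6 and 36.4 TPM and SRSF6-204 had 12.2 and 7.19 TPM. The 9 decay and retained-intron transcripts of SRSF5, the 4 of SRSF11 and the 1 of SRSF6 were listed at 0 in both libraries. SRSF11 also had 32.8 and 22.3 TPM in transcripts that GENCODE gives no coding sequence and no decay class.

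SRSF1 and TRA2A varied between the libraries or rested on low values. SRSF1-205, coding, had 5.65 and 6.66 TPM and SRSF1-206, a decay isoform, 0.27 and 2.58 TPM, for shares of 12.3% and 29.7%. TRA2A-201, coding, had 6.62 TPM in replicate 1 and 60.6 TPM in replicate 2, and the highest unproductive isoform, TRA2A-207, had 2.24 and 2.04 TPM. The share of TRA2A was 25.3% and 5.94%, and the coding isoform moved most between them. An assembler transcript with the same ends as TRA2A-201 had 90.6 TPM in replicate 1 and 0 in replicate 2, so the 2 together had signal in both libraries.

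**Figure D5:**
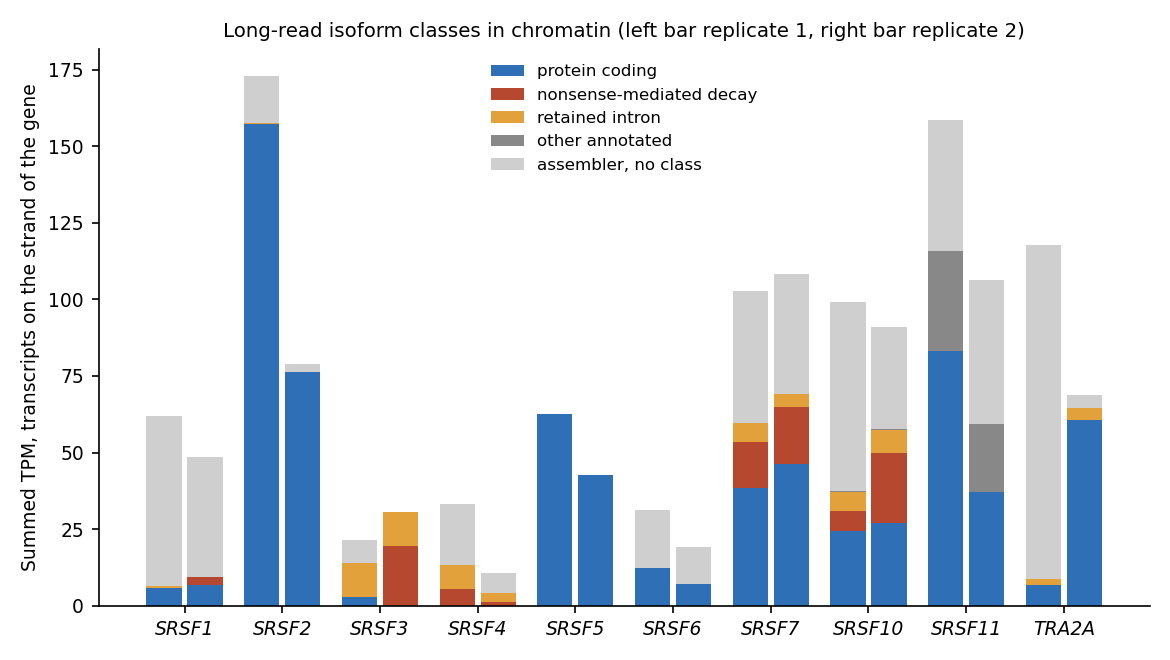
Summed TPM of the transcripts on the strand of each SR gene in the 2 long-read chromatin libraries (left bar replicate 1, right bar replicate 2), coloured by class. Decay and retained-intron isoforms stand beside coding ones in SRSF7 and SRSF10, while SRSF2 and SRSF5 are almost entirely coding. SRSF4 has no annotated coding part, and an assembler transcript without class makes up 60.21% and 61.55% of its bars.

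Assembler transcripts, which have no class, carried much of the signal. They made up 0 to 92.5% of the TPM on the strand of the gene, with 89.6% and 80.5% for SRSF1, 62.1% and 36.6% for SRSF10 and none for SRSF5. The leading one in SRSF1 had 55.4 and 39.0 TPM and ended inside the gene (chr17:58003493-58007346), and that of SRSF10 had 40.0 and 30.7 TPM (chr1:23970975-23980927). Their exons are not in the table, so whether they hold a poison exon or a retained intron was not analysed here.

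For 7 of the 10 genes assembler transcripts of like span were also listed on the opposite strand, which direct cDNA reads do not record by themselves. For SRSF3 one such transcript had 37.6 and 66.7 TPM, against 21.3 and 30.6 TPM for all transcripts on the strand of the gene. In SRSF5 the opposite strand had 187 and 93.2 TPM, 74.9% and 68.6% of the signal at the locus, and in SRSF7 it had 109 and 100.2 TPM, or 51.6% and 48.1%. SRSF1, SRSF2 and TRA2A had none. The unproductive shares above count only the strand of the gene, and the part that opposite-strand transcripts would have in them was not tested.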

How the data were processed

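Short-read gene values were counts that the authors had divided by DESeq2 size factors, deposited as a signal-type table. Per the labels and methods, reads were aligned to hg38 with HISAT2 2.1.0 and assembled with StringTie, guided by GENCODE 35. Every nonzero value was a whole multiple of the smallest in its library (100% whole, tolerance 0.001), so whole raw counts were recovered for edgeR and DESeq2. Per the methods, StringTie supplied the raw counts, so they need not equal numbers of sequenced reads. Long-read values were TPM per transcript, deposited by the authors after minimap2 and StringTie. Whether the reads were oriented by strand before that is not given in the sources used here.

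Genes were named by GENCODE 44 on hg38, by stable identifier, or for assembler rows by the same-strand gene with the largest span Jaccard index, at least 0.5. Genes longer than 200 bases with 10 or more normalized counts in 3 or more libraries were tested with limma 3.58.1 (R 4.3.3, mean-variance trend) on log2(normalized count + 1), with Benjamini-Hochberg adjustment over 26066 genes. The pseudocount slightly understates changes of low genes. A gene was called at an adjusted p under 0.05 and, where stated, a 4-fold change. Alternatives used edgeR 4.0.16, DESeq2 1.42.0 and the settings named below. On simulated counts for these 26066 genes, limma, edgeR and DESeq2 each recovered 200 of 200 genes changed by 3 on the log2 scale. There was no false call past both thresholds. That change is larger than that of any SR gene, so recovery of changes as small as theirs was not tested. The SR genes and lists were chosen with earlier results of these data known. All 10 SR genes were named, with the 2 highest and 2 lowest tested genes of each other list and, per SR gene, the leading coding and unproductive transcript. Of these, 1 decay factor is not reported here. Of the lists, CLK1, UPF3B, SMG5, SMG8, HNRNPD, HNRNPH2, HNRNPL and HNRNPUL2 had no row of their own. The merged rows, the within-library shares and the opposite-strand sums were added after seeing the data. Intervals were not given for TPM.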

Additional observations from a re-analysis of the deposited data

How the results depend on the processing

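Of 673 values recomputed under alternatives, 589 were counted as kept. A fold change was kept with the same direction and side of the threshold, and a median, share or ratio when it stayed within the spread between replicates. A count was kept within a set ratio, so 6 and 7 SR genes higher in chromatin counted as the same. Leaving out 1 of the 2 long-read libraries could not move a gene's share past that spread, so those values were kept by design. The fold changes of 5 SR genes changed direction with the same ERCC total per library, SRSF2 (-0.95), SRSF6 (-0.69, merged row), SRSF7 (-1.22), SRSF10 (-0.065) and SRSF11 (-0.34). Medians also changed sign, those of the SR genes (-0.20), the SR-related genes (-0.03) and the kinase list (-0.53) with the ERCC total, and those of the other SR family genes (0.08) and the decay factors (0.26) with the same total per library. The median of all genes, -0.02, was above 0 in 5 settings, from 0.01 with TMM factors to 0.44 with the same total per library. With the same ERCC total per library, 1 of the 8 SR genes was higher in chromatin and 3 in nucleoplasm. On that scale 1 was called at 4-fold in nucleoplasm (SRSF3). The numbers called in nucleoplasm were then 1 of the other SR family genes, 2 SR-related genes, 2 kinase, phosphatase and importer genes, 6 U1 and 3′ splice site factors, 1 decay factor and 10 hnRNP genes, and 0 SR-related genes were called in chromatin. With the same total per library, 2 of the 8 SR genes were called at 4-fold in chromatin and the median was 1.59. In that setting 6 SR-related genes and 3 kinase, phosphatase and importer genes were called in chromatin, and 0 of the kinase, U1 and 3′ splice site or hnRNP lists in nucleoplasm. With a 2-fold minimum, 4 of the 8 SR genes were called in chromatin, beside 32.2% of all genes tested. Also called there were 1 other SR family gene, 9 SR-related, 4 kinase list and 1 decay factor gene. The calls in nucleoplasm, beside 26.9% of all genes, were 1 SR-related, 5 U1 and 3′ splice site, 1 decay factor and 7 hnRNP genes. With all same-strand rows of a gene summed, 0 hnRNP genes were called in nucleoplasm. The shifts under the 2 totals are shifts of all genes together, and those of the 2-fold minimum follow from the lower limit.

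Leaving out each library in turn kept the SR counts at 0 called, 6 higher in chromatin and 1 higher in nucleoplasm, with the median between 1.11 and 1.15. The replicate block, which adds the replicate number as a term, also kept the counts at 6 and 1, with SRSF7 at an adjusted p of 0.0624 (limma). The methods describe both fractions of 3 cultures, but no source used here says that a replicate number marks a culture, and the correlations of same-numbered libraries were 0.09, 0.05 and 0.06, so the numbers were not taken as pairs. Every library correlated best with its own number, a hint that they may be pairs.

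The median unproductive share of the SR genes was 18.3% and was 17.8% or 18.8% with 1 of the 2 long-read libraries left out. It was 8.12% with decay isoforms alone, 8.59% with retained introns alone, 26.9% with other annotated transcripts added and 3.64% with assembler transcripts in the denominator. The ratio of the highest to the lowest SR gene level, 2.93 in chromatin and 6.03 in nucleoplasm per kilobase of exon, was 13.7 and 33.7 per kilobase of genomic span. Counts limited none of the short-read SR values, whereas the read depth behind TPM is unknown and 70 of 116 isoforms were listed at 0.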
